A study of Mus musculus with 2 samples.

Results

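Imprinted genes are autosomal genes expressed mainly from the copy inherited from 1 parent. The 43 listed imprinted genes of 17 domains were followed here through the chromatin loops of the mouse uterus. A loop was assigned to a gene when either end of the gene in RefSeq (GRCm38, the assembly that mm10 names) lay inside a loop anchor or within 10 kb of it. The 43 names correspond to 42 gene records, because Nesp is listed as a synonym of Gnas. Of these, 37 are protein-coding and 5 are long non-coding RNA genes (H19, Kcnq1ot1, Meg3, Airn and Peg13). They are 42 of the 49550 genes on the chromosomes with loops, and their loops were 78 of the 26240 listed for diestrus and 64 of the 24131 listed for estrus. The 4 domains on chromosome 7 (Igf2-H19, Cdkn1c-Kcnq1, Snrpn-Ube3a and Peg3) are marked throughout, because loop numbers on that chromosome differed more between the libraries than elsewhere.

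Imprinting is set in the germ line by DNA methylation of control regions, and proteins such as ZFP57 and the insulator protein CTCF read or keep these marks in the embryo. Imprinted genes lie in clusters in which 1 control region governs several genes, often through a long non-coding RNA or through the choice of which enhancers a promoter can reach. Many encode regulators of growth, and several of the listed genes are known to be imprinted only in certain tissues such as the placenta or the brain. A Hi-C loop is a pair of positions on a chromosome that are ligated to each other more often than the positions around them.

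The study collected whole uteri of intact, untreated control CD-1 mice at 2 months of age, either in diestrus or in estrus, the luteal and the ovulatory stage of the cycle. There was 1 Hi-C library of each stage, made with the Arima kit, and how many animals went into each is not stated in the labels. No difference between the stages could therefore be tested. With 1 library per stage, the 95% intervals printed here cover counting error only, and not variation between animals or libraries. They take every contact as a separate molecule, which the lists cannot show. CD-1 is an outbred stock, and the deposited lists do not separate the maternal and the paternal chromosome, so every value is a sum over both copies. A uterus holds several cell types, and a stage difference in their proportions cannot be told apart from a difference within cells. Contact lists hold no expression values, so the labelled tissue could not be checked against marker genes. The listed loops summed to 4533525 contacts in diestrus and 4153485 in estrus, which is not the depth of the libraries.

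Most loops at imprinted genes were listed in both libraries, and where the number of loops at a gene or domain differed it was usually higher in diestrus. Of the 42 genes, 31 had at least 1 loop, 28 of them in both libraries and 3 (Ube3a, Dlk1 and Meg3) in the diestrus library only. Among protein-coding members, 27 of 37 (73.0%) had a loop in either library, beside 65.2% of 20661 autosomal protein-coding genes. More loops in diestrus were listed for 10 of these 37 (27.0%, background 20.2%), and more in estrus for 1 (2.70%, background 16.9%), which was Dlx5. Equal numbers above 0 were listed for 16 (43.2%, background 28.1%). Of the 5 long non-coding RNA genes 4 had a loop, beside 56.1% of 12408 autosomal genes of that kind. Neighbouring members often share an anchor (Peg3 with Usp29, Igf2 with Ins2, Sgce with Peg10, Zrsr1 with Commd1), so counts of genes count some loops more than once.

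Counted as distinct loops, diestrus was ahead in 6 domains and estrus in 1, while 8 had the same number in both libraries and 2 had none. The 6 were Snrpn-Ube3a (5 in diestrus, 1 in estrus) and Peg3 (6 and 4), both on chromosome 7, and Dlk1-Meg3 (5 and 3), Gnas-Nesp (3 and 2), Zrsr1-Commd1 (5 and 3) and Peg13-Trappc9-Kcnk9 (11 and 7). This depends on the rule, since with an anchor anywhere in the gene Gnas had 8 and 8 loops and Commd1 6 and 6. By that count the Peg3 gene still had 5 and 3 and Kcnk9 6 and 3. The domain with more in estrus was Peg10-Sgce together with Calcr and Dlx5 (12 and 13). Equal numbers were found at Igf2-H19 (7 and 7) and Cdkn1c-Kcnq1 (4 and 4) on chromosome 7, and at Igf2r-Airn (4 and 4), Plagl1 (4 and 4), Grb10-Ddc (7 and 7), Nnat (3 and 3), Rasgrf1 (1 and 1) and Impact (1 and 1). Mest and Nap1l5 had no loop by this rule.

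**Figure D1:**
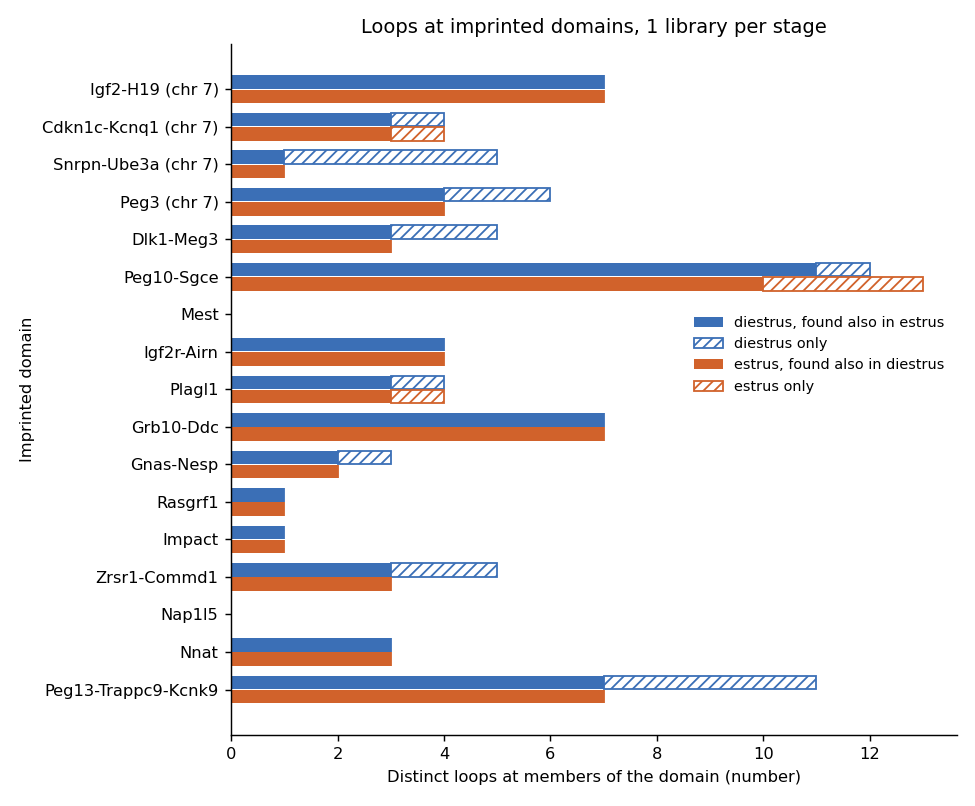
Distinct loops (x axis, number) at the members of each of 17 imprinted domains (y axis) in the diestrus (blue) and estrus (orange) library, 1 library per stage, with loops not found in the other library hatched. Snrpn-Ube3a and Peg13-Trappc9-Kcnk9 hold 4 hatched diestrus loops each, and Igf2-H19 and Grb10-Ddc hold 7 loops in both libraries with none hatched.

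A loop counted as found in the other library when a loop there lay within 10 kb of it at each anchor, edge to edge. Of the diestrus loops at imprinted genes 60 of 78 were found in estrus (76.9%, Clopper-Pearson interval 66.0 to 85.7), beside 74.4% of all diestrus loops. Of the estrus loops 59 of 64 were found in diestrus (92.2%, 82.7 to 97.4), beside 80.8% of all estrus loops. This left 18 loops at imprinted genes listed in diestrus only and 5 in estrus only. Chromosome 7 held 7 of those 18 and 1 of those 5.

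On chromosome 7 as a whole the estrus list had 0.813 times as many loops as the diestrus list, against 0.926 times on the other chromosomes. Of the 22 diestrus loops at imprinted genes of chromosome 7, 15 were found in estrus (68.2%, 45.1 to 86.1), close to the 67.4% of all diestrus loops of that chromosome. On the other chromosomes 45 of 56 were found (80.4%, 67.6 to 89.8), beside 74.8%. In estrus 15 of 16 on chromosome 7 were found in diestrus (93.8%, 69.8 to 99.8), beside 82.5%. Among the 16 members on chromosome 7, 5 (31.2%) had more loops in diestrus and 0 in estrus, while 21.5% and 11.1% of the protein-coding genes of that chromosome did. The 16 include the non-coding H19 and Kcnq1ot1, and Peg3 and Usp29 are both among the 5 through the same loops. Among the 26 members elsewhere, 7 (26.9%) had more in diestrus and 1 (3.85%) in estrus, beside 20% and 17.6% of the other autosomal protein-coding genes. The 26 include the non-coding Meg3, Airn and Peg13. The part that the chromosome-wide difference plays at the chromosome 7 domains was not tested.

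Some promoters of imprinted genes lay inside the anchors themselves. RefSeq promoters (GRCm38.p6, 300 bases each, from 250 bases before to 50 after a start) were at hand for 30 of the 42 genes, 46 promoters in all, and 12 promoters of 9 genes lay inside a loop anchor of either library (26.1%, beside 28.2% of all 32851 promoters in the table). These were the promoters of Gnas, Kcnq1ot1, Rasgrf1, Plagl1, Grb10, Commd1 and Dio3 in both libraries, and of Ube3a and Meg3 in diestrus only. The letters TGCCGC, which ZFP57 binds when methylated, were searched on both strands and occurred in 13 of the 46 (28.3%), beside 11.6% of all promoters. These 13 belong to 12 genes, and overlapping promoters of Mest count the same letters more than once. CpG dinucleotides numbered 15.5 per promoter at the median, beside 7 over all promoters. A CTCF core, searched in 2 forms that occur in 0.131% and 0.0365% of all promoters, was in none of the 46, which says only that these letters are not in these windows. Shown first are the 4 promoters that lie inside an anchor and hold the ZFP57 letters, in capitals on whichever strand they fell, and last the promoter of Kcnq1ot1, whose anchor had a different partner in each library. They lie at chr10:13090582-13090881 (plus strand), chr11:12037371-12037670 (minus), chr11:22982235-22982534 (minus), chr12:109540746-109541045 (plus) and chr7:143296498-143296797 (minus).
Plagl1: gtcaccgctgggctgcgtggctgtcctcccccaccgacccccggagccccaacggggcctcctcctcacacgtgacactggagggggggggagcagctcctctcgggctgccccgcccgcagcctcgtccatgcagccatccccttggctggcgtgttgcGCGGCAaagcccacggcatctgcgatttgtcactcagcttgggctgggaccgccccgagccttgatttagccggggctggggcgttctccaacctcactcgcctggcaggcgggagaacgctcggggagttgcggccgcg
Grb10: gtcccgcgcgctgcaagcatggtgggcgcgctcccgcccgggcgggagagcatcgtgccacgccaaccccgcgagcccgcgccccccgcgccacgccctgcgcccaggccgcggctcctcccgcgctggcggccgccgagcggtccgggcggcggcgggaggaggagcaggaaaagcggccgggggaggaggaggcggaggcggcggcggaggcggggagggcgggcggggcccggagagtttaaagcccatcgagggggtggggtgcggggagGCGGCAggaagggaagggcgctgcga
Commd1: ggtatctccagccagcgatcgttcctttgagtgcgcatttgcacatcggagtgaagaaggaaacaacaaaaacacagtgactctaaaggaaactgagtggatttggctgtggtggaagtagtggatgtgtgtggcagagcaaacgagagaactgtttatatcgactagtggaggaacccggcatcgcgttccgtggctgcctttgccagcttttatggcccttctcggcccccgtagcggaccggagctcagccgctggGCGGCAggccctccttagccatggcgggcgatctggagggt
Meg3: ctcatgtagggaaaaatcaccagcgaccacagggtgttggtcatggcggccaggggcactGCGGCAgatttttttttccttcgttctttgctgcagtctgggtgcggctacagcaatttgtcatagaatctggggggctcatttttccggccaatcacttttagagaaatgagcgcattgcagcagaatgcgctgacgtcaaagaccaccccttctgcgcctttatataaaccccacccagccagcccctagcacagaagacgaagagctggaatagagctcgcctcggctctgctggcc
Kcnq1ot1: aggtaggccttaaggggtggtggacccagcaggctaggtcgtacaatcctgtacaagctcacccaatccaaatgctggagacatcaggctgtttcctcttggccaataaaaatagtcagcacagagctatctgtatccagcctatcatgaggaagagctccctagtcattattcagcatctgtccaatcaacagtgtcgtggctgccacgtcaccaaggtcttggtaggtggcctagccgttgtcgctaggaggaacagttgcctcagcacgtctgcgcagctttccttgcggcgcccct

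The first domain on chromosome 7 joins Igf2, a fetal growth factor expressed from the paternal copy, H19, a non-coding RNA expressed from the maternal copy, and Ins2, an insulin gene. A methylated control region between Igf2 and H19 binds CTCF on the unmethylated maternal copy and is the textbook case of an imprinted insulator. All 7 loops of the domain were found at the same positions in both libraries, 4 at the anchor of Igf2 and Ins2 (chr7:142670001-142680000) and 3 at the anchor of H19 (chr7:142580001-142590000). The first anchor contains Ins2 and starts 3.19 kb from the end of Igf2, and the second starts 1.86 kb from H19. Every loop of both anchors ran to lower coordinates, away from Cdkn1c. No loop joined the Igf2 anchor to the H19 anchor.

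Both genes were joined to the same 2 positions at lower coordinates, which lie downstream of Igf2, a gene on the minus strand. The anchor at chr7:142430001-142440000, which holds an end of Syt8, a synaptotagmin gene, was joined to H19 over 150 kb with 181 diestrus contacts (95% Poisson interval 156 to 209) and 138 estrus contacts (116 to 163). It was joined to Igf2 over 240 kb with 138 (116 to 163) and 97 (78.7 to 118) contacts. The anchor at chr7:142530001-142540000, at the mitochondrial ribosomal protein gene Mrpl23, was joined to H19 over 50 kb with 178 and 184 contacts and to Igf2 over 140 kb with 148 and 137. Contacts with the Syt8 anchor, counted without scaling, were thus lower in estrus from both genes. Those with the Mrpl23 anchor were within counting error of each other.

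Strength, the number of contacts over the number expected from the donut of pixels around the loop, gives the same loops relative to their surroundings. The highest in the domain was the 360 kb loop of Igf2, with 203 contacts (176 to 233) and a strength of 7.75 in diestrus against 143 (121 to 168) and 6.17 in estrus. On the log2 scale, estrus over diestrus and centred on the median of all paired loops, this was a difference in strength of -0.34, with a counting interval of -0.66 to -0.03. The loop with most contacts, the 60 kb loop of Igf2, had 287 and 286 contacts and strengths of 5.74 and 5.91. The 250 kb loop of H19 had 210 and 173 contacts and strengths of 4.88 and 4.52. Of the 7 pairs 6 had a lower centred strength in estrus, with log2 differences of -0.34 to -0.01. The counting interval left out 0 for 1 of them. It included 0 at both loops to the Syt8 anchor, -0.27 (-0.60 to 0.06) from H19 and -0.28 (-0.67 to 0.10) from Igf2.

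Cdkn1c encodes the cyclin-dependent kinase inhibitor p57 and is expressed from the maternal copy, and Kcnq1 encodes a potassium channel. Kcnq1ot1 is a long non-coding RNA transcribed from within Kcnq1 on the paternal copy, where it silences the domain. The anchor at the Cdkn1c gene (chr7:143460001-143470000) held the strongest loop of all those at imprinted genes in both libraries. It spanned 310 kb to a position inside the body of Kcnq1 (chr7:143150001-143160000), with 770 contacts (717 to 826) and a strength of 14.3 in diestrus and 699 (648 to 753) and 14.6 in estrus. It ranked 210 of 26240 loops by strength in diestrus and 208 of 24131 in estrus, and the centred log2 difference was 0.01 (-0.14 to 0.16).

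Kcnq1 and Cdkn1c were also joined end to end. A 370 kb loop from an anchor 6.88 kb from the start of Kcnq1, holding an end of the cation channel gene Trpm5, to the Cdkn1c anchor had 158 and 161 contacts and strengths of 3.67 and 4.01. A 50 kb loop from the same Kcnq1 anchor had 303 and 277 contacts, with strengths of 4.60 and 3.94. Kcnq1ot1 had 1 loop in each library, but not the same one. In diestrus its promoter anchor (chr7:143290001-143300000) was joined to Cdkn1c over 170 kb with 149 contacts (126 to 175) at a strength of 2.29. In estrus the same anchor was joined over 140 kb to the position inside Kcnq1 that also holds the 310 kb Cdkn1c loop, with 93 contacts (75.1 to 114) at a strength of 2.16. Both loops had little more than 2 times the expected contacts, and since the lists hold called loops only, neither loop can be taken as absent from the other library.

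**Figure D2:**
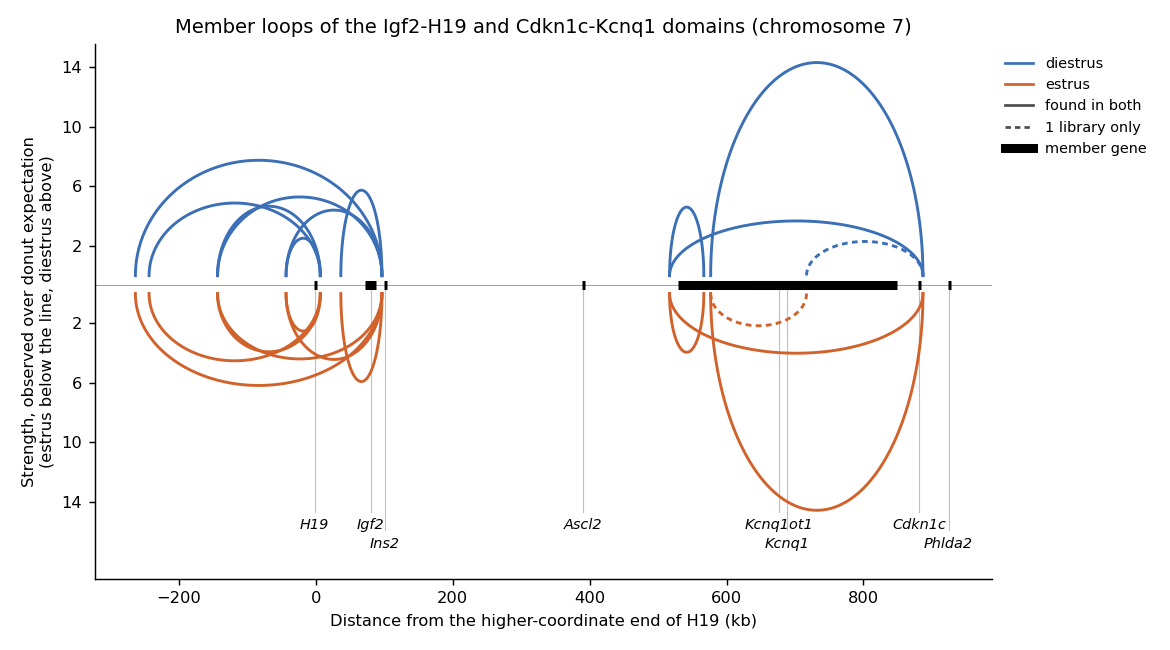
Loops at members of the Igf2-H19 and Cdkn1c-Kcnq1 domains of chromosome 7, as arcs between their anchors against distance from an end of H19 (x axis, kb), with arc height showing strength (y axis, observed contacts over donut expectation) for diestrus above and estrus below the line. Solid arcs were found in both libraries and mirror each other, and the dashed arcs are the single loop of Kcnq1ot1 in each library.

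The remaining genes of the cluster had no loop. Phlda2, a gene that limits placental growth, lay 31.5 kb from the nearest anchor in diestrus and 11.5 kb in estrus. Ascl2, a transcription factor of the trophoblast, lay 30.7 kb from the nearest anchor in both libraries, but inside a 190 kb loop from the tyrosine hydroxylase gene Th with 155 and 158 contacts and strengths of 8.10 and 7.93. Ascl2 was thus enclosed by a loop of high strength in both libraries while no anchor touched it.

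Peg3 and Usp29, also on chromosome 7, encode a zinc finger protein and a ubiquitin protease, start next to each other on opposite strands and are expressed from the paternal copy. They shared 1 anchor (chr7:6720001-6730000) with 5 loops in diestrus and 3 in estrus. The 360 kb loop to the zinc finger gene Zfp78 had 145 contacts (122 to 171) and a strength of 5.66 in diestrus against 87 (69.7 to 107) and 3.83 in estrus. This was the largest centred difference toward diestrus of any pair at an imprinted gene, -0.58 (-0.98 to -0.19) or 1.49-fold, just inside the 1.5-fold limit used for a difference. The 190 kb loop to the right had 148 and 112 contacts, with strengths of 2.97 and 2.54, and the 440 kb loop to an anchor with Epp13 and Zfp667 had 57 and 49 contacts, with strengths of 3.10 and 3.09.

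The Peg3 anchor held 2 loops listed in diestrus only. They ran 290 kb to an anchor with Smim17 and Olfr1344 (73 contacts, 57.2 to 91.8, strength 3.24) and 570 kb to the right (51 contacts, 38.0 to 67.1, strength 3.02). Zim1, a zinc finger gene expressed from the maternal copy, had 1 loop of 250 kb with 184 and 178 contacts and strengths of 4.81 and 5.03. The left anchor of this loop lay 4.44 kb from Zim1 and held an end of the neighbouring gene Zim2. Its right anchor, inside Usp29, was also the right anchor of the 190 kb Peg3 loop. Loops assigned by the rule to genes known for expression from opposite parental copies thus ran to the same position.

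The Snrpn-Ube3a domain of chromosome 7, the counterpart of the human Prader-Willi and Angelman region, carried 5 diestrus loops and 1 estrus loop. Ube3a, a ubiquitin ligase expressed from the maternal copy in neurons, had its promoter in an anchor with 2 diestrus loops, of 830 kb (52 contacts, 38.8 to 68.2, strength 2.94) and 380 kb (44 contacts, 32.0 to 59.1, strength 2.48). In estrus the nearest anchor lay 449 kb from Ube3a. Magel2, a member of the MAGE family, had 2 very long diestrus loops, of 1770 kb (42 contacts, 30.3 to 56.8, strength 7.58) and 1660 kb (33 contacts, 22.7 to 46.3, strength 7.12), which were the longest of all loops at imprinted genes. Its 160 kb loop was in both libraries, with 190 and 199 contacts and strengths of 6.52 and 7.01.

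Ndn, the MAGE family gene necdin, had no anchor within 10 kb but lay inside that 160 kb Magel2 loop in both libraries. Mkrn3, a ring finger gene, was 27.6 kb from the nearest anchor in both. Snrpn, which encodes a splicing protein and carries the control region of the domain, was 159.8 kb from the nearest anchor in diestrus and 1202 kb in estrus. The 4 single-library loops here had 33 to 52 contacts each, below the median of 121 over diestrus loops at imprinted genes.

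On chromosome 12, Dlk1 encodes a Notch-related membrane protein, Rtl1 a retrotransposon-derived protein and Dio3 a deiodinase that inactivates thyroid hormone, all expressed from the paternal copy, and Meg3 is a non-coding RNA of the maternal copy. In diestrus a 100 kb loop joined Dlk1 to the Meg3 promoter, with 65 contacts (50.2 to 82.8) at a strength of 2.11, and a second Dlk1 loop of 300 kb had 48 contacts (35.4 to 63.6) at 2.40. Neither was listed in estrus, where the nearest anchors lay 12.5 kb from Dlk1 and 18.3 kb from Meg3. Both genes thus had loops in 1 library only, each loop at little more than 2 times the expected contacts.

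Rtl1 and Dio3 had loops in both libraries. The longer Rtl1 loop was 690 kb in diestrus (56 contacts, strength 3.41) and 700 kb in estrus (42 contacts, strength 4.36), with the right anchor moved by 1 bin of 10 kb, so that contacts were lower and strength higher in estrus. The shorter was 170 kb in diestrus (85 contacts, 67.9 to 105, strength 3.42) and 160 kb in estrus (67 contacts, 51.9 to 85.1, strength 2.46), a centred difference of -0.49 (-0.97 to -0.01). The Dio3 loop of 250 kb had 73 and 84 contacts, with strengths of 2.06 and 2.38. Longer loops also passed over these genes. Those over the whole domain, of 1490 kb (86 and 92 contacts) and 940 kb (86 and 102), had strengths of 8.10 and 9.95 and of 5.52 and 7.69, while a 520 kb loop over Dlk1 and Meg3 (46 and 33) had 3.82 and 3.18.

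On chromosome 6, Sgce (epsilon-sarcoglycan) and Peg10 (a retrotransposon-derived gene needed in the placenta) meet head to head in 1 anchor (chr6:4740001-4750000) with 4 loops in each library. Loops of 180 kb (134 and 131 contacts), 370 kb (142 and 133) and 640 kb to Asb4 (64 and 72) were in both. The 640 kb loop had strengths of 2.35 and 3.05, a centred difference of 0.36 (-0.15 to 0.87), so the counting interval included 0. A 330 kb loop was listed in diestrus only (64 contacts, strength 2.83) and a 260 kb loop in estrus only (102 contacts, strength 2.06). Calcr, the calcitonin receptor gene of the same cluster, had no loop by the rule, since no anchor lay closer than 14.7 kb to either end. That nearest anchor lies inside the gene, where 2 loops in each library had an anchor. They spanned 120 kb (74 and 51 contacts) and 230 kb (42 and 34).

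Dlx5, a homeobox transcription factor gene farther along chromosome 6, had more loops by the rule than any other member, 8 in diestrus and 9 in estrus. All ran to lower coordinates. In each library 3 of them came from an anchor 7.80 kb from Dlx5 that holds Dlx6. With an anchor anywhere in the gene Dlx5 had 5 and 6, fewer than Trappc9 (11 and 9) and Gnas (8 and 8). The 880 kb loop had 279 diestrus contacts (247 to 314) and 350 estrus contacts (314 to 389), with strengths of 6.31 and 7.31. The 850 kb loop, at an anchor with the neighbouring homeobox gene Dlx6, had 251 (221 to 284) and 321 (287 to 358), with strengths of 4.63 and 5.72 and a centred difference of 0.29 (0.05 to 0.53). Both had more contacts in estrus, although the estrus list as a whole summed to fewer contacts.

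The pair with the largest difference at any imprinted gene was also here. A 450 kb loop at Dlx5 in diestrus had 91 contacts (73.3 to 112) and a strength of 2.11, and its nearest estrus counterpart, 430 kb long and ending at Dlx6, had 214 contacts (186 to 245) and a strength of 4.44. The centred difference was 1.06 (0.70 to 1.43), or 2.08-fold, but the right anchors were 20 kb apart from start to start, so it compares neighbouring positions and not 1 position. A 290 kb loop between Dlx6 and Sem1 had 122 and 140 contacts, and the 1030 kb loop had 110 and 106. In estrus only, a 1240 kb loop had 34 contacts at a strength of 4.22 and a 660 kb loop to Slc25a13 had 84 at 2.34. The neighbour Asb4 had 5 and 7 loops in the same order, and Dlx6 had 3 and 4.

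On chromosome 15 the brain-imprinted potassium channel gene Kcnk9, the non-coding RNA Peg13 and the trafficking gene Trappc9, which contains Peg13, carried 11 diestrus and 7 estrus loops. Trappc9 was joined over 120 kb to Ago2, which encodes the slicer argonaute, with 1385 diestrus contacts (1313 to 1460) and 1163 estrus contacts (1097 to 1232). By contacts it ranked 6 of 26240 loops and 10 of 24131, and its strengths were 11.4 and 10.3. The centred difference was small, -0.16 (-0.28 to -0.05), yet its interval left out 0 because the counts were high.

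Kcnk9 and Peg13 were joined to each other in both libraries. The loop was 270 kb in diestrus with 111 contacts (91.3 to 134) and a strength of 5.10, and 260 kb in estrus with 87 (69.7 to 107) and 3.75, 1 bin apart, a centred difference of -0.46 (-0.88 to -0.04). The 480 kb loop of Kcnk9, to a position inside Trappc9, had 207 and 170 contacts and strengths of 10.5 and 10.7. A 610 kb loop of Peg13 had 50 and 44 contacts and strengths of 8.42 and 7.47.

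All 4 single-library loops of this domain were in diestrus. The 730 kb loop of Peg13 had 31 contacts (21.1 to 44.0) and a strength of 5.10, and 3 loops of Kcnk9 of 310, 340 and 510 kb had 44, 34 and 100 contacts. Kcnk9 had 6 diestrus and 3 estrus loops, from 2 anchors, 1 at an end of the gene and 1 inside it, 8.13 kb from the nearer end. Under a 5 kb limit from the gene ends Kcnk9 had 3 and 2 and the domain 8 and 6. Peg13 had 5 and 4, and Trappc9 had 1 at its ends in each library but 11 and 9 with an anchor anywhere in its body.

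**Figure D3:**
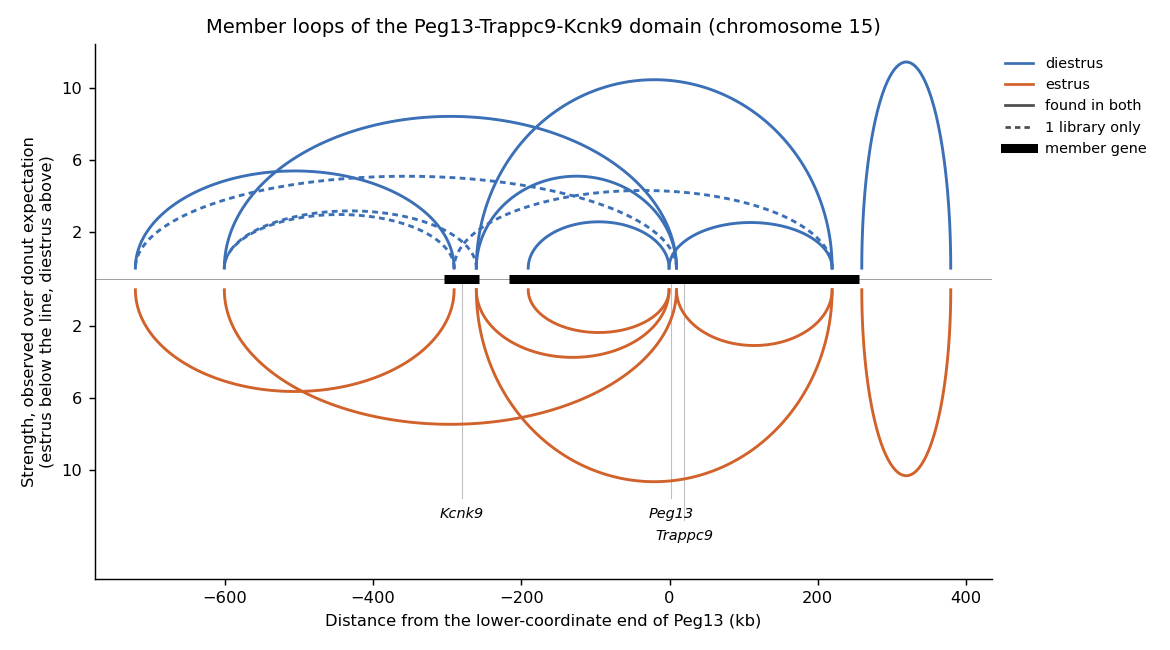
Loops at Kcnk9, Peg13 and Trappc9 on chromosome 15, as arcs between their anchors against distance from an end of Peg13 (x axis, kb), with arc height showing strength (y axis, observed contacts over donut expectation) for diestrus above and estrus below the line. The 4 dashed arcs, found in 1 library only, are all in diestrus, and the narrow arc at the right is the 120 kb loop of Trappc9 to Ago2.

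On chromosome 17, Igf2r encodes the receptor that clears the growth factor Igf2, and Airn is the non-coding RNA of the paternal copy that silences it and, in the placenta, the cation transporter gene Slc22a3. Only Slc22a3 had loops, 4 in each library at 1 anchor (chr17:12410001-12420000) shared with the plasminogen gene Plg, and all ran toward Igf2r. The 250 kb loop, which ended 12.4 kb from Igf2r, had 324 contacts (290 to 361) and 277 (245 to 312), with strengths of 5.16 and 5.94, again fewer contacts but a higher strength in estrus. The 400 kb loop, which ended inside Airn, had 215 (187 to 246) and 149 (126 to 175), an unscaled contact ratio of 0.693 (0.559 to 0.858). Its strengths were 5.26 and 4.58, a centred difference of -0.22 (-0.53 to 0.09), so the counting interval included 0. The 120 kb loop had 239 and 215 contacts and the 580 kb loop to Wtap had 60 and 51. Igf2r and Airn themselves fell just outside the 10 kb limit, at 12.4 and 11.3 kb. A 70 kb loop from inside Igf2r to inside Airn had 360 and 309 contacts at strengths of 2.19 and 2.13.

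Grb10, an adaptor that damps insulin and growth factor receptor signalling, and Ddc, the decarboxylase that makes dopamine and serotonin, adjoin on chromosome 11. All 7 loops were at the same position in both libraries. The 160 kb loop of Ddc had 571 contacts (525 to 620) and 613 (565 to 664), with strengths of 9.11 and 10.6 and a centred difference of 0.20 (0.04 to 0.37). The 480 kb loop of Ddc had 195 and 205 contacts, with strengths of 9.52 and 9.05, and the 730 kb loop had 43 and 51. The 210 kb loop that joins Ddc to the Grb10 promoter went the other way, with 133 contacts (111 to 158) and 94 (76.0 to 115), strengths of 3.36 and 2.70 and a centred difference of -0.33 (-0.73 to 0.06). Grb10 and Ddc also shared far positions, since loops of 260 and 320 kb from Grb10 and of 480 and 540 kb from Ddc ended in the same 2 anchors.

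**Figure D4:**
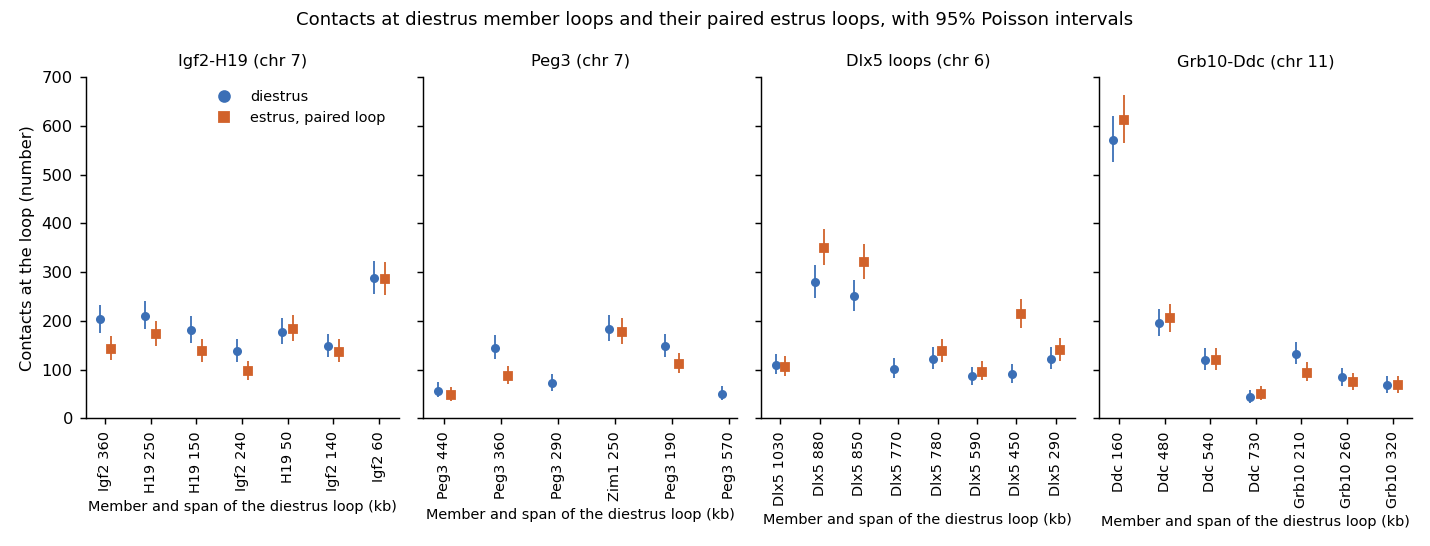
Contacts (y axis, number) at each diestrus loop of 4 groups of imprinted genes and at its paired estrus loop, by member and span of the diestrus loop (x axis, kb), with 95% Poisson intervals, 1 library per stage. Estrus contacts are lower at 6 of 7 Igf2-H19 loops and higher at the 880, 850 and 450 kb Dlx5 loops, and a diestrus point without an estrus point beside it had no paired loop.

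Also on chromosome 11, Zrsr1, a splicing factor gene expressed from the paternal copy, lies inside Commd1, a copper metabolism gene. They had 5 distinct loops in diestrus and 3 in estrus. The 330 kb loop of Zrsr1 in diestrus (365 contacts, strength 7.58) had a 320 kb counterpart in estrus (387 contacts, strength 7.95) whose anchor lay beyond 10 kb from Zrsr1. In the same way a 160 kb loop counted in estrus (87 contacts, strength 2.77) had a 140 kb counterpart in diestrus (118 contacts) that was not counted, so these shifts offset each other in the totals. The Commd1 loop was 280 kb with 230 contacts (201 to 262) in diestrus and 290 kb with 272 (241 to 306) in estrus. Its strengths were 5.35 and 6.60, with a centred difference of 0.29 (0.03 to 0.55). The left anchors were adjacent and not the same. The diestrus anchor lay 5.46 kb from Commd1 and held an end of Cct4, while the estrus anchor held an end of Commd1. The 740 kb loop of Zrsr1 had 61 and 62 contacts. Diestrus alone had a 700 kb loop to Ehbp1 (46 contacts, strength 2.49) and a 580 kb loop (34 contacts, strength 3.19), and these 2 make up the difference in number. With q-values 10 times stricter the order turned, Zrsr1 having 2 and 3 loops and Commd1 1 and 2.

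Plagl1, a zinc finger regulator of other imprinted genes on chromosome 10, had 4 loops in each library. The 340 kb loop had 447 contacts (407 to 490) and 446 (406 to 489), with strengths of 6.85 and 7.38, and the 70 kb loop had 229 and 253, with strengths of 3.19 and 3.62. Another loop was 90 kb in diestrus (148 contacts) and 100 kb to Ltv1 in estrus (152). Diestrus alone had a 1310 kb loop (33 contacts, strength 3.18) and estrus alone a 230 kb loop (136 contacts, 114 to 161, strength 2.48).

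On chromosome 2, Gnas encodes the stimulatory G protein subunit and, from alternative promoters, several imprinted transcripts. Its first promoter lay in the anchor of 2 loops present in both libraries, of 700 kb (118 and 102 contacts, strengths 8.14 and 8.25) and 470 kb (55 and 53 contacts, strengths 2.94 and 3.07). A loop of 80 kb to Nelfcd, from an anchor 6.74 kb from a Gnas end, was listed in diestrus only (174 contacts, 149 to 202, strength 2.16). Nnat, the proteolipid neuronatin, lies on the same chromosome inside the gene Blcap, and its 3 loops all had like values in the 2 libraries. They spanned 290 kb (365 and 358 contacts), 230 kb to the growth hormone releasing hormone gene Ghrh (441 and 431) and 120 kb (251 and 245), with strengths of 7.04 and 7.31, 7.02 and 7.36, and 4.02 and 3.99. The anchor lay 7.48 kb from Nnat and nearer to an end of Blcap, which also had 3 loops in each library.

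The last members had 1 loop each. Rasgrf1, a guanine nucleotide exchange factor for Ras on chromosome 9, had a loop of 60 kb in diestrus (233 contacts, strength 2.12) and of 80 kb in estrus (258 contacts, strength 2.53) at its promoter. Impact, a regulator of translation on chromosome 18, had a 200 kb loop whose anchors also held Cabyr and Osbpl1a, with 100 and 93 contacts and strengths of 2.83 and 2.69.

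Across all domains, 59 loops at imprinted genes were paired one to one between the libraries, 50 of them at the same position, out of 19399 pairs overall. Their median centred log2 difference in strength was 0.01 (all pairs 0), with an SD over pairs of 0.25 (all pairs 0.26). A difference over 1.5-fold toward estrus was seen in 1 of 59, the shifted Dlx5 pair (1.69%, background 1.64%), and toward diestrus in 0 (background 1.56%). In 26 pairs the strength was higher in diestrus and in 33 in estrus (all pairs 50% in diestrus). On chromosome 7 it was higher in diestrus in 10 of 15 (background 49.3% on that chromosome), with a median of -0.02. The counting interval of the centred difference left out 0 in 9 of 59 pairs (15.3%, background 13.3%). It lay toward diestrus in 5 (8.47%, background 6.98%), at Igf2 with Ins2, Peg3 with Usp29, Rtl1, Kcnk9 with Peg13 and Trappc9, and toward estrus in 4 (6.78%, background 6.36%), at Ddc, Commd1 and Dlx5 with 2 pairs. Of the 9 pairs 4 were not at the same position in the 2 libraries, those of Rtl1, Kcnk9 with Peg13, Commd1 and the 450 kb loop of Dlx5.

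**Figure D5:**
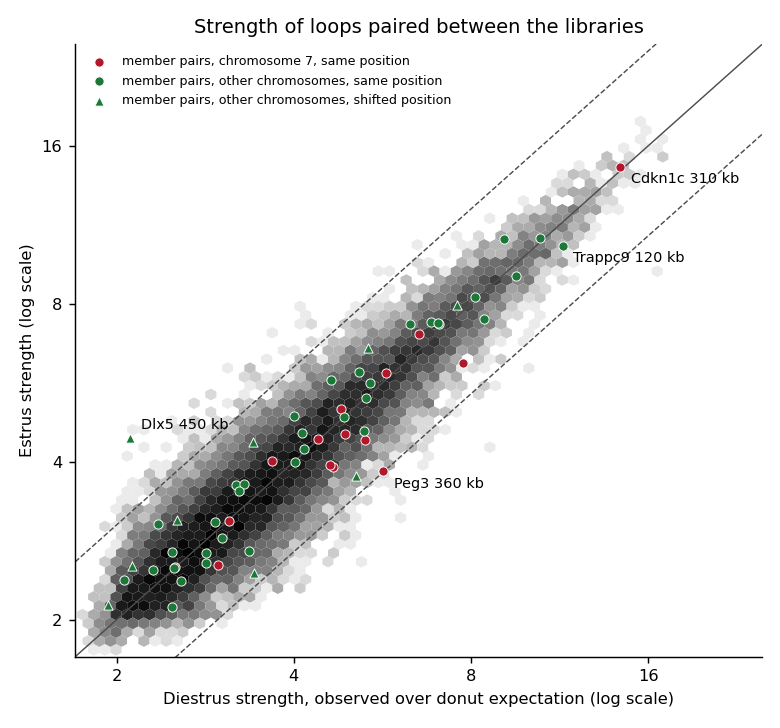
Strength in estrus (y axis) against strength in diestrus (x axis), both as observed contacts over donut expectation on log scales, for 59 pairs at imprinted genes (coloured points, chromosome 7 in red) over all 19399 pairs (grey hexagons, darker for more pairs). Dashed lines mark 1.5-fold around the median of all pairs, and of the coloured points the 450 kb Dlx5 pair lies above the upper line while the 360 kb Peg3 pair lies near the lower one.

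The median loop at an imprinted gene was longer and stronger than the median of each list, a difference given without a test. Its strength was 3.55 in diestrus (all loops 3.28) and 3.998 in estrus (all loops 3.43), and its span was 325 and 275 kb (all loops 240 and 230). The loops listed in a single library had a median strength of 2.998 in diestrus and 2.34 in estrus, against 4.29 and 4.24 for those found in both. Over all loops the same order held, 2.56 and 2.57 against 3.68 and 3.74. Of the 36 member anchors in diestrus, 16 had at least 3 loops (44.4%, beside 25.1% of all anchors of that list), and at 10 of these all loops ran in the same direction. In estrus 10 of 32 had at least 3 loops (31.2%, beside 23.6%) and 7 of them were one-directional, beside 65.7% of such anchors over the whole list in diestrus and 68.8% in estrus. Igf2, H19, Dlx5, Ddc, Slc22a3 and Nnat were among these in both libraries.

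Direct loops between members numbered 5 in diestrus and 3 in estrus. Those in both were Kcnq1 with Cdkn1c, Ddc with Grb10 and Kcnk9 with Peg13, and those in diestrus alone were Kcnq1ot1 with Cdkn1c and Dlk1 with Meg3. In 3 of the 5 a non-coding RNA gene was at 1 end. No share over all loops was set beside these counts, and the members were listed by domain. The counts are therefore a description only and show no trait of imprinted genes.

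The 11 genes without a loop by the rule were Phlda2, Ascl2, Snrpn, Ndn, Mkrn3, Calcr, Mest, Copg2, Igf2r, Airn and Nap1l5. Calcr, Igf2r and Airn had anchors inside the gene, away from its ends. Mest, a hydrolase-like gene, and the overlapping coatomer gene Copg2 lay inside loops of up to 630 kb, the 1 with most contacts being a 580 kb loop from Klhdc10 with 252 and 212 contacts. Nap1l5, which lies inside Herc3, was 12.9 kb from the anchor of a 260 kb loop of Herc3 with 195 and 163 contacts. Measured from a gene end, the members nearest to the 10 kb limit on its inner side were Nnat at 7.48 kb, Kcnq1 at 6.88 kb, Impact at 4.69 kb and Zim1 at 4.44 kb. On its outer side they were Airn at 11.3 kb, Phlda2 at 11.5 kb in estrus, Igf2r at 12.4 kb, Nap1l5 at 12.9 kb and Calcr at 14.7 kb.

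Neighbouring genes that are not among the 42, other imprinted genes and imprinting factors were counted on the same lists. The neighbours are not a separate set, because some of their loops are also loops of members. Examples are Blcap at the Nnat anchor, Plg at the Slc22a3 anchor, Mrpl23 at loops of Igf2 and H19, and Ago2 at the Trappc9 loop. Of 40 neighbouring genes found in the annotation, 29 had a loop (72.5%), 6 with more in diestrus, 7 with more in estrus and 16 with equal numbers. They lay on 59 distinct loops in diestrus and 57 in estrus. Beside these, 65.2% of autosomal protein-coding genes had a loop, 20.2% more in diestrus and 16.9% more in estrus. The neighbours include some non-coding genes. Mirg, a non-coding RNA gene beside Meg3, had 2 and 0, and the aminoacyl-tRNA synthetase gene Wars had 6 and 6. Of 16 imprinted genes that lie elsewhere, 14 had a loop (87.5%), 2 with more in diestrus and 5 with more in estrus, on 49 and 53 distinct loops. Among them were Htr2a, a serotonin receptor gene, with 8 and 9, Ampd3 with 4 and 6, Cdh15 with 3 and 5 and Jade1 with 6 and 4. Of 20 factors that set or keep imprints, 17 had a loop (85%), 6 with more in diestrus and 4 with more in estrus. Loops in diestrus and estrus numbered 2 and 0 at Ctcf, 2 and 2 at Zfp57, 3 and 3 at the methyltransferase gene Dnmt1, and 1 and 3 at Setdb1.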

How the data were processed

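Chromatin contacts were measured by Hi-C in 1 diestrus and 1 estrus uterus library, grouped by the stage in their labels. The submitters' processing notes name Juicer and mm10. Tool versions, the aligner and the caller's settings were not given in the sources used here. Per the file headers, the columns are those of HiCCUPS output. The deposited lists hold called loops between anchors 10 kb wide. Contacts observed at a loop and the pixels merged into it are raw counts made by the authors, per the file headers. The authors' caller also gives, as a signal in units of contacts, the number expected from each of 4 neighbourhoods. Each neighbourhood has a q-value from the authors' caller. Anchor positions are deposited as bases, printed here 1-based on mm10.

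Loops were assigned to genes with a RefSeq gene table (GRCm38.p6), which has no strand. Strength was contacts over the donut expectation. Mutually nearest loops with both anchors within 10 kb were paired, and log2 strength ratios were centred on the median over all 19399 pairs. The 95% intervals are exact Poisson (contacts), Clopper-Pearson (shares) and exact conditional (ratios), with expected contacts taken as exact. With 1 library per stage no test was made. The members, domains and comparison lists (41 neighbours, of which Nespas had no record, 16 imprinted genes elsewhere and 20 factors) were chosen with earlier results of these data known. Every member was named, and in each domain the loop with most contacts, the strongest, the longest, those joining 2 members, the extreme pairs and the strongest single-library loop, with further loops added as examples. Loops that only span a member were considered up to 2 Mb, a limit chosen after seeing the data. Alternatives varied the distance rule, q-value, list length, chromosome 7, tolerance, expectation and scaling. Assignment and pairing were checked on simulated data. Python 3.11.15, pandas 2.3.3, numpy 2.4.6, scipy 1.17.1 and matplotlib 3.10.9 were used.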

Additional observations from a re-analysis of the deposited data

How the results depend on the processing

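The difference in distinct loops, -14 in estrus relative to diestrus, kept its direction under each alternative tried. The estrus list as a whole was also shorter, with 0.920 times as many loops as the diestrus list. With a gene end inside the anchor only, 49 diestrus loops were left, 3 domains had more loops in diestrus and 2 in estrus. Domains with more in estrus also numbered 2 with any base of the gene in the anchor, 2 with q-values 10 times stricter and 3 when the longer diestrus list was trimmed, by strength, to the length of the other. With q-values 10 times stricter, Zrsr1 (2 loops in diestrus, 3 in estrus) and Commd1 (1 and 2) each had 1 more in estrus, the reverse of the main count. Without chromosome 7, 20 of 26 members had a loop. With identical anchors the shares found were 64.1% of diestrus and 78.1% of estrus loops at members. With the largest of the 4 expected values the median strengths were 2.69 and 2.89, and 3 pairs passed 1.5-fold. Pairs at the same position only gave 0 over 1.5-fold, and contacts scaled by list totals gave 2. Under that scaling 8 of the 59 pairs changed sign toward diestrus and 10 toward estrus. The longer Rtl1 loop turned from 0.34 to -0.29, the 220 kb Peg13 loop from 0.27 to -0.18 and the 250 kb Slc22a3 loop from 0.19 to -0.10, while the 480 kb Ddc loop turned from -0.09 to 0.20, the 180 kb Peg10 loop from -0.16 to 0.09 and the 50 kb H19 loop from -0.01 to 0.17. The causes were not tested. Counting precision is lowest where contacts are few, the fewest at a member loop being 31 (21.1 to 44.0) at the 730 kb Peg13 loop. No paired analysis was possible because each stage has 1 library.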
